A study of Homo sapiens with 8 samples.

Results

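The change in the Acetalax response between chronically exposed and parental BT549 cells was described gene by gene. BT549 is a triple-negative breast cancer cell line, without estrogen or progesterone receptor expression and without ERBB2 amplification. Acetalax (oxyphenisatin acetate) is a diphenol laxative, and its proposed target TRPM4 is a calcium-activated channel for monovalent cations. The 4 BT549 libraries, 1 per condition, were parental cells without drug, parental cells after 1 μmol/L Acetalax for 6 hours, chronically exposed (CE) cells without drug, and CE cells after the same treatment. The CE cells were Acetalax-resistant clones raised in doses up to 40 μmol/L and then kept drug-free for 2 weeks before use. Whether they descend from 1 cell or several is not stated in the labels. The other 4 libraries of the series hold the same conditions in MDA-MB468 cells.

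For every gene, the response of parental cells (Acetalax minus control, log2) was subtracted from the response of CE cells. This difference of responses is the same number as the CE-minus-parental difference after Acetalax less the CE-minus-parental difference without drug. The identity shows which level carries it: where the Acetalax libraries held at least 0.75 of it, the treated level was said to carry it, and where they held at most 0.25, the control level. A share below 0 means that both levels were displaced the same way in CE cells, and more so without drug. Genes entered if their mean was at least 5 CPM (counts relative to library size, adjusted by the trimmed mean of M values, TMM) over the 4 libraries, which held for 10270 of 55679 gene identifiers, 9911 of them protein coding. At this limit, ITM2A (mean 5.00 CPM) was just inside with a difference of 0.70 and KATNAL2 just outside with -0.85. With 1 library per condition no difference has a replicate check, so no p-value is given, and an effect of exposure cannot be told apart from a property of 1 culture or library. The 95% intervals beside differences cover the counting of reads and nothing else, and reads copied by PCR are not separate molecules.

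Counts on genes ranged from 42261122 to 54241728 per BT549 library, a 1.28-fold range. The median counting standard error of a difference of responses was 0.069, and 26 genes had a library under 10 counts. All 9 mesenchymal markers, such as VIM and COL1A1, were over 5 CPM, with a summed level of 5629 CPM in parental control cells, 5980 in parental cells after Acetalax, 11208 in CE control cells and 11385 in CE cells after Acetalax. SPARC and COL1A2 were the markers with the largest excess in CE control cells, while VIM, FN1, ZEB1 and CDH2 were lower in CE than in parental control cells. Of 13 epithelial markers only KRT7 was over 5 CPM in any library, and their sums were 246, 255, 94.98 and 124 CPM in the same order. The blood and endothelial markers (9, of which PECAM1 was not matched) summed to between 0.426 and 0.816 CPM, with CD3E, HBB, HBA1 and CDH5 at 0 counts in all 4 libraries. ESR1 had at most 10 counts and PGR at most 34, and ERBB2 lay between 40.1 and 87.6 CPM. For the mesenchymal and epithelial sums, CE and parental cells differed by more than control and treated cells of the same background did, and the part of these sums in the results was not tested.

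Inflammatory and growth factor transcripts are controlled in layers. Stimuli that activate the MAP kinase ERK induce AP-1 factors (FOS and JUN proteins) and, with a delay, the phosphatases and adaptors that shut ERK off. NF-κB, a family of dimers held in the cytoplasm by IκB proteins, switches on chemokines, cytokines and its own inhibitors. Stress of the endoplasmic reticulum raises chaperones and, through the factor ATF4, genes of amino acid supply.

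The promoters of 3 of the 12 genes with the largest positive difference are shown because they hold a letter match to one of the motifs of these pathways. They are the 250 bases before the RefSeq start in GRCh38.p14, read 5′ to 3′ on the gene's strand, with matches in capitals. IL8 (named CXCL8 in RefSeq) lies at chr4:73740319-73740568 on the plus strand, with an AP-1 match 137 bases and a TATA box 31 bases before the start. BIRC3 lies at chr11:102317234-102317483 on the plus strand, with an NF-κB match 199 bases before the start, and CXCL3 at chr4:74038690-74038939 on the minus strand, with one 79 bases before it. HAS3, TRAF1, NAV3, CD274, CLDN1 and SPRY4, also among the 12, were searched and held no AP-1, NF-κB or TATA box match. LIF and FOSL1 had no matched promoter.
IL8: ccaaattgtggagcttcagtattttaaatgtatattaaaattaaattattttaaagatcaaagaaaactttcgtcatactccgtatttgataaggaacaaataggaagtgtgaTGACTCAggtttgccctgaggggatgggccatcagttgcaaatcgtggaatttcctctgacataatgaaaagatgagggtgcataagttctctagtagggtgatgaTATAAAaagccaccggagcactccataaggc
BIRC3: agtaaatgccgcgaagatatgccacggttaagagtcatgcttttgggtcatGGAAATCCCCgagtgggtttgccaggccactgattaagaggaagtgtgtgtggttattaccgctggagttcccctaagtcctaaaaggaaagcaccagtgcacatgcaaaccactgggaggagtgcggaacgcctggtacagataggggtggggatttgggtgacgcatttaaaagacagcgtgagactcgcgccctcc
CXCL3: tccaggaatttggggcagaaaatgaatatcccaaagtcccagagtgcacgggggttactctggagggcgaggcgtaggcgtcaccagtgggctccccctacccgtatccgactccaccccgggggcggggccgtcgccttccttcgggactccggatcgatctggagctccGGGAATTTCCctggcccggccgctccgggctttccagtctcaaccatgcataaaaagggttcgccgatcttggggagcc
The AP-1 motif searched was TGANTCA, on both strands. For the box near the start the letters were TATAAA, also on both strands. The NF-κB motif was a consensus of 10 letters with the fourth and the fifth left free, whose matches are the capitals in BIRC3 (reverse strand) and CXCL3. Sites that deviate from the searched letters stay in lower case, so a window without capitals for a motif, such as IL8 for NF-κB, may still hold such a site. The motifs do not overlap in these windows. Of all 27305 promoters of this length, 6.60% held the AP-1 letters, 1.73% the NF-κB letters and 11.1% the TATA box letters. Among the 8465 promoters matched to measured genes, the shares were 3.39%, 1.98% and 4.77%. RefSeq promoters were matched to 173 of 225 genes with a difference of at least 1 (76.9%) and to 101 of 128 with -1 or less (78.9%), and because fewer than 80% had one, motif shares were not compared between groups.

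The response to Acetalax was wider in CE than in parental BT549 cells. A response of at least 1 (2-fold) was seen for 137 genes (1.33%) in parental cells and for 583 (5.68%) in CE cells, and one of -1 or less for 123 (1.2%) and 646 (6.29%). The standard deviation over genes was 0.39 for the parental and 0.68 for the CE response. The responses, which share no library, had a Pearson correlation of 0.81 (Spearman 0.81) across the 10270 genes, which are not independent replicates. Of the 137 genes with a parental response of at least 1, 106 had a larger response in CE cells, and the median was 1.23 in parental and 1.85 in CE cells. Of the 123 at -1 or less, 84 were further below 0 in CE cells, with medians of -1.14 and -1.51.

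The difference of responses was at least 1 for 225 of 10270 genes (2.19%) and -1 or less for 128 (1.25%). Its median over all genes was 0.047 (quartiles -0.17 and 0.25). More genes thus lay above 0 than below, and counts by sign in gene lists have this center as their baseline. The counting interval left out 0 for 349 of these 353 genes, and for 205 it lay wholly beyond 1 in size. The split depends on the scaling: with total counts, which shift the median by -0.12, 163 genes were at least 1 and 191 at -1 or less, so the share on the positive side was 46.0% in place of 63.7%. Of the 353 genes, 179 responded by at least 0.5 in size in CE cells only, and 153 responded in the same direction in both backgrounds but further in CE cells. The others were 11 genes with opposite responses, 9 that responded in parental cells only and TXNIP, the single gene with a smaller response of the same direction.

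**Figure D1:**
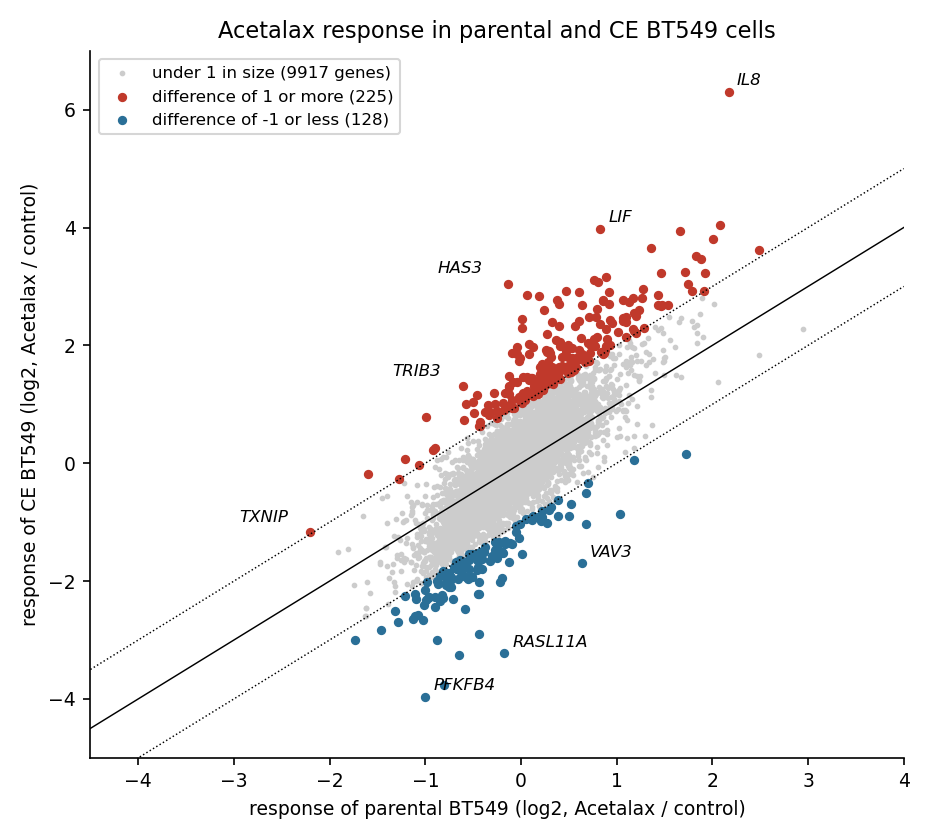
Response of CE BT549 cells (vertical, log2 Acetalax over control) against that of parental cells (horizontal), 1 point per gene, with the line of equal responses and dotted lines at a difference of 1. The 225 red genes lie above and the 128 blue genes below the dotted lines, and IL8 is highest with 2.17 in parental and 6.31 in CE cells.

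Among the 225 genes with a positive difference, the control level carried it for 81, the treated level for 48, and both shared it for 96. CE control cells were below parental control cells for 189 of the 225 (84.0%, against 48.1% of all genes), with a median of -0.80. CE cells after Acetalax were above parental cells after Acetalax for 177 (78.7%, against 57.9% of all genes), with a median of 0.48. In this group 141 of 225 genes began lower in CE cells and ended higher, against 1518 of all 10270. Choosing genes by a large positive difference favors this pattern by its definition. The control side made up a median of 62.3% of the difference. The CE control library had the lowest of the 4 levels for 184 of the 225 genes, and the CE Acetalax library the highest for 169. Over all genes these shares were 27.2% and 34.5%. The same CE control library enters the CE response, the control-level difference and the difference of responses, so these counts are a breakdown of the rule's own value.

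Among the 128 genes with a negative difference, the treated level carried it for 55, the control level for 36, and both for 37. CE control cells were above parental control cells for 99 (median 0.43) and CE cells after Acetalax below treated parental ones for 102 (median -0.83). Over all 10270 genes the same held for 5332 and 4322. The control side made up a median of 34.3%. These genes had lower levels, with a median of 10.2 CPM against 52.8 CPM for the positive group and 40.2 CPM for all genes.

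**Figure D2:**
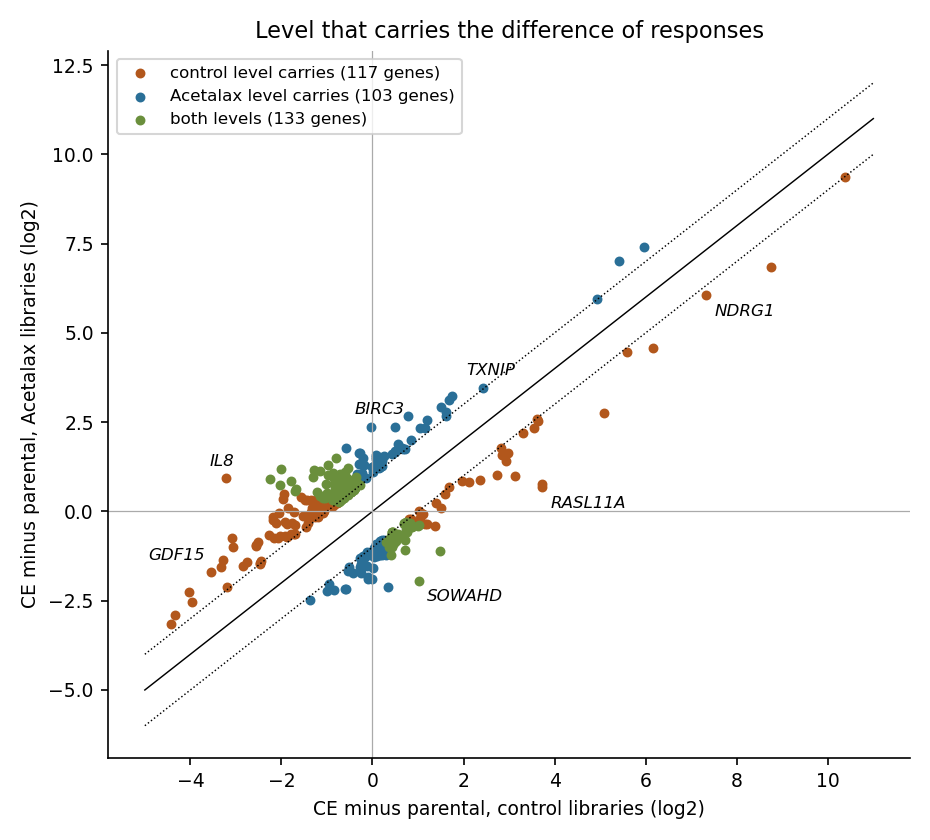
CE minus parental difference after Acetalax (vertical, log2) against the same difference without drug (horizontal) for the 353 genes with a difference of responses of at least 1 in size, coloured by the level that carries it (117 control, 103 treated, 133 both). The solid line marks equal differences and the dotted lines a gap of 1. IL8 lies at -3.21 on the horizontal and 0.93 on the vertical axis, BIRC3 at -0.02 and 2.37, and RASL11A at 3.73 and 0.68.

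IL8, which encodes the neutrophil chemokine interleukin 8 (chromosome 4, hg19 74606223 to 74609433), had the largest positive difference. Its level was 79.5 CPM in parental control cells, 358 in parental cells after Acetalax, 8.55 in CE control cells and 680 in CE cells after Acetalax. Acetalax was thus followed by a 4.50-fold higher level in parental and a 79.2-fold higher level in CE cells, a difference of responses of 4.14 (interval 4.00 to 4.28). The CE control library was the lowest of the 4 by far, -3.21 against parental control cells, while after Acetalax CE cells were 0.93 above parental cells. By its share of 0.22, the control level carried the difference.

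Cytokines and chemokines had the highest median difference of the 24 gene lists, 1.73 over the 12 of 33 listed genes that passed the level filter. The rank rests on that filter: with every listed gene of 1 count or more, the median less that of the genes over 5 CPM was 0.75, below those of MAPK feedback (1.08) and NF-κB genes (0.86). Of the 12 measured genes, 8 were at least 1 (66.7%, against 2.19% of all genes) and none was -1 or less. In the IL6 family, LIF, a cytokine that signals through STAT3, had 210 CPM in parental control cells, 373 after Acetalax, 44.1 in CE control cells and 697 in CE cells after Acetalax. Its difference was 3.15 (3.08 to 3.22), shared by a control level of -2.25 and a treated level of 0.90. IL6 had 10.3, 26.5, 5.93 and 75.4 CPM in the same order and a difference of 2.30. For CLCF1, another ligand of this family, the difference was 1.70, and CE control cells were close to parental ones (-0.21), so the treated level carried it.

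Among the CXC chemokines, several of which draw neutrophils, 4 of 5 measured genes were at least 1. CXCL3 had 9.47 CPM in parental control cells, 11.2 after Acetalax, 6.33 in CE control cells and 38.7 in CE cells after Acetalax, with a difference of 2.37 (2.12 to 2.61) carried by the treated level. CXCL1 (1.76) was shared by both levels and CXCL2 (1.38) was carried by the treated level. CCL2, a monocyte chemokine, had 6.63, 6.45, 9.29 and 33.6 CPM in the same order, so that parental cells barely responded and CE cells did, with a difference of 1.89 carried by the treated level. These chemokine genes shared a high level in treated CE cells, but they did not share a low CE control level.

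**Figure D3:**
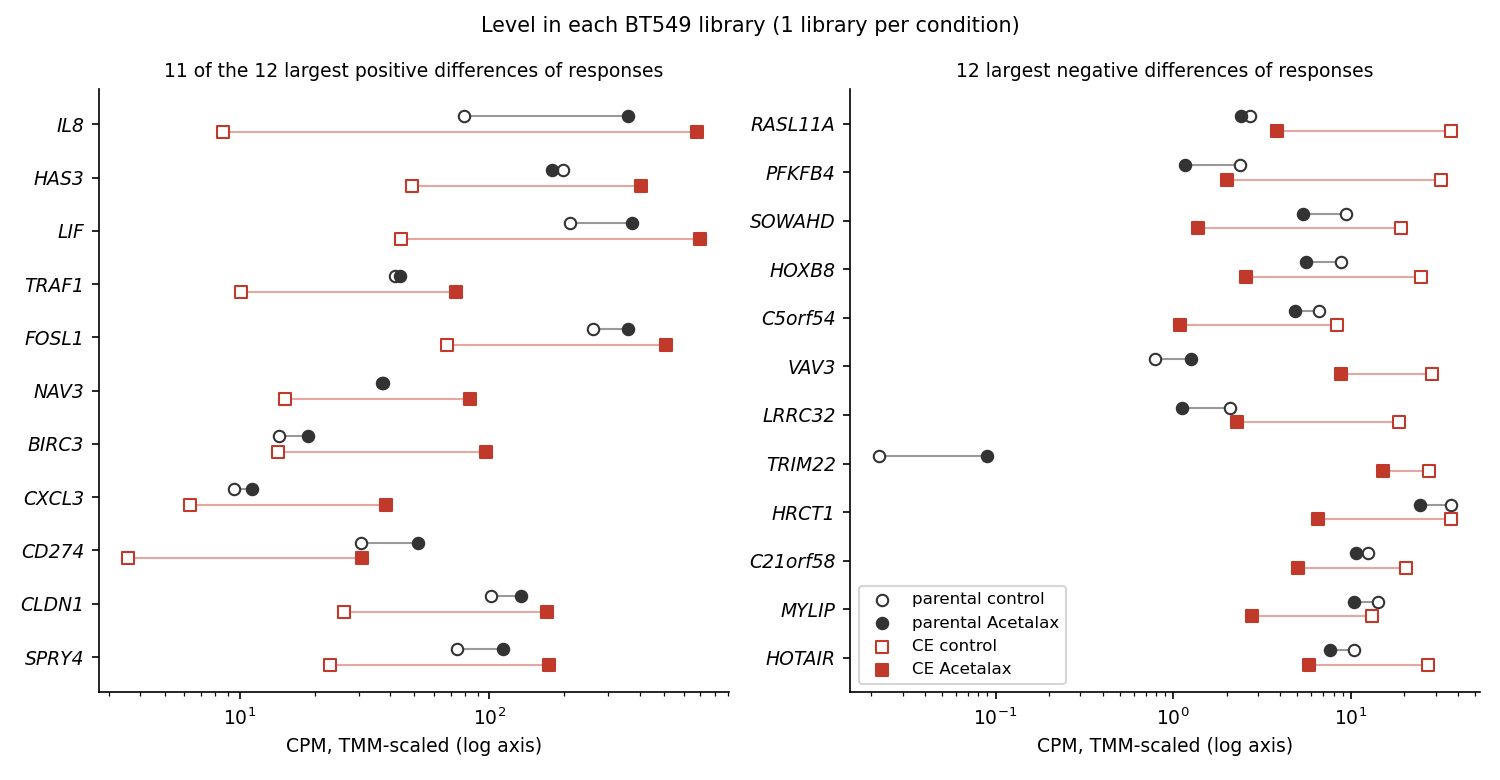
Level in CPM (log axes) in each of the 4 BT549 libraries for 11 of the 12 genes with the largest positive (left) and the 12 with the largest negative (right) difference of responses. Circles are parental and squares CE cells, open without drug and filled after Acetalax. For all 11 genes on the left the open square is the lowest of the 4 points, by a margin that ranges from small (BIRC3, 14.2 CPM in CE and 14.4 in parental control cells) to wide (IL8). TRIM22, at far left on the right side, rests on 1 and 4 counts in parental cells.

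The list of EGFR ligands and MAPK feedback genes held the largest number of genes at or above 1, 20 of 32 measured (62.5%, against 2.19% of all genes). The list had none at -1 or less and a median of 1.19. Its 6 members of mixed role were all at least 1, among them LIF and IER3, which stand on other lists too. The lists were chosen with earlier results of these data known, so this number is not independent of them. The list's median control-level difference was -0.82 and its median treated-level difference 0.44. Of the 20, 8 were carried by the control level, 11 by both and ERRFI1 alone by the treated level. The ligand HBEGF, a membrane-bound growth factor shed to activate EGFR, had 32.9 CPM in parental control cells, 104 after Acetalax, 14.8 in CE control cells and 229 in CE cells after Acetalax. Its difference was 2.28 (2.15 to 2.42). The other measured ligand of this role, NRG1, which binds ERBB3 and ERBB4, had a difference of 1.72. The receptor EGFR itself was at 0.67 and its sheddase ADAM17 at 0.60.

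Among the feedback genes, 4 of 8 dual specificity phosphatases were at least 1. DUSP6, the phosphatase of ERK, had 72.1 CPM in parental control cells, 72.5 after Acetalax, 22.0 in CE control cells and 108 in CE cells after Acetalax. Parental cells did not differ (0.01), and the CE response of 2.29 began from a lower control level (-1.71). DUSP4, another MAP kinase phosphatase, was at 193 and 177 CPM in parental cells and at 9.51 and 23.8 CPM in CE cells, so after its CE response of 1.32 it still differed from treated parental cells by -2.90. DUSP5 (1.41) and DUSP7 (1.21) were also carried by the control level, whereas DUSP1 was at -0.04. SPRY4, an inhibitor of receptor tyrosine kinase signaling, had 74.3, 113, 23.0 and 173 CPM in the same order of libraries and a difference of 2.31 (2.20 to 2.41), and SPRY2 had 1.66.

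Of 6 measured ETS factors, transcription factors that ERK phosphorylates or induces, 5 were at least 1. ETS1 had 262 CPM in parental control cells, 387 after Acetalax, 180 in CE control cells and 906 in CE cells after Acetalax, a difference of 1.76 shared by both levels. ETV4 (17.6, 18.9, 2.58 and 7.00 CPM in that order) and ETV5 (82.6, 82.9, 23.9 and 53.5 CPM) had no response of 0.5 in parental cells and remained below the parental level after Acetalax in CE cells. ERRFI1, an intracellular EGFR inhibitor, had 237, 402, 259 and 1118 CPM and a difference of 1.35.

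The immediate early transcription factors were spread on both sides of 0. Of 40 measured, 5 were at least 1 (12.5%, against 2.19% of all genes). A further gene was -1 or less (2.5%, against 1.25%), and the median was 0.40. FOSL1, the AP-1 subunit FRA1, had 260 CPM in parental control cells, 361 after Acetalax, 67.4 in CE control cells and 510 in CE cells after Acetalax, and its difference of 2.45 (2.39 to 2.51) was carried by the control level. FOS went the other way, with 29.3, 42.5, 115 and 100 CPM and a difference of -0.73. FOSB was at -0.00 and FOSL2 at 0.88. JUN (0.35) and JUNB (-0.17), the partners of FOS proteins, were within 0.5 of 0. EGR1, an early zinc finger factor, was at -0.72, with CE control cells 1.69 above parental control cells. MAFF, a small MAF factor, had 53.01, 224, 17.8 and 295 CPM and a difference of 1.97 (1.85 to 2.08). IER3, an early survival gene, had 1.80. SNAI1, a repressor of E-cadherin, was the gene at -1.40.

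In the NF-κB list, 11 of 29 measured genes were at least 1 (37.9%, against 2.19% of all genes). None was -1 or less, and 28 were above 0. The list's median was 0.83, against 0.047 over all genes. All 5 subunits were between 0.64 and 1.48, with NFKB1, precursor of the p50 subunit, at 54.1 CPM in parental control cells, 67.3 after Acetalax, 47.9 in CE control cells and 166 in CE cells after Acetalax. For RELA, the main activating subunit, the difference was 0.64. Of the IκB inhibitors, NFKBIE was at 1.13 and NFKBIA at 0.32. TRAF1, an adaptor of TNF receptors, had 41.8, 43.8, 10.1 and 73.9 CPM and a difference of 2.79 (2.63 to 2.95), shared by both levels. BIRC3, a ubiquitin ligase of the same complexes, had 14.4, 18.7, 14.2 and 97.1 CPM and a difference of 2.39 (2.21 to 2.58). Its CE and parental controls differed by -0.02, and the treated level carried the difference. Of the 11 genes at or above 1, 3 were carried by the control level, 3 by the treated level and 5 by both.

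In the TGF-β and YAP list, 10 of 37 measured genes were at least 1 (27.0%, against 2.19% of all genes). None was -1 or less, and the median was 0.49. The ligands had 4 of 6 at or above 1. INHBA, the activin A subunit, had 83.9 CPM in parental control cells, 232 after Acetalax, 31.0 in CE control cells and 291 in CE cells after Acetalax, and its difference of 1.76 was carried by the control level. TGFB2 (1.51) and BMP2 (1.57) were shared by both levels. GDF15, a stress-induced member of the family, had 390, 709, 40.3 and 275 CPM, so CE cells stayed below parental cells at both levels while their response was 6.82-fold against 1.82-fold. The 4 receptors lay between -0.83 and 0.86. The YAP targets CTGF (1.20) and CYR61 (0.91), both secreted matrix proteins, had responses above 1 in either background.

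**Figure D4:**
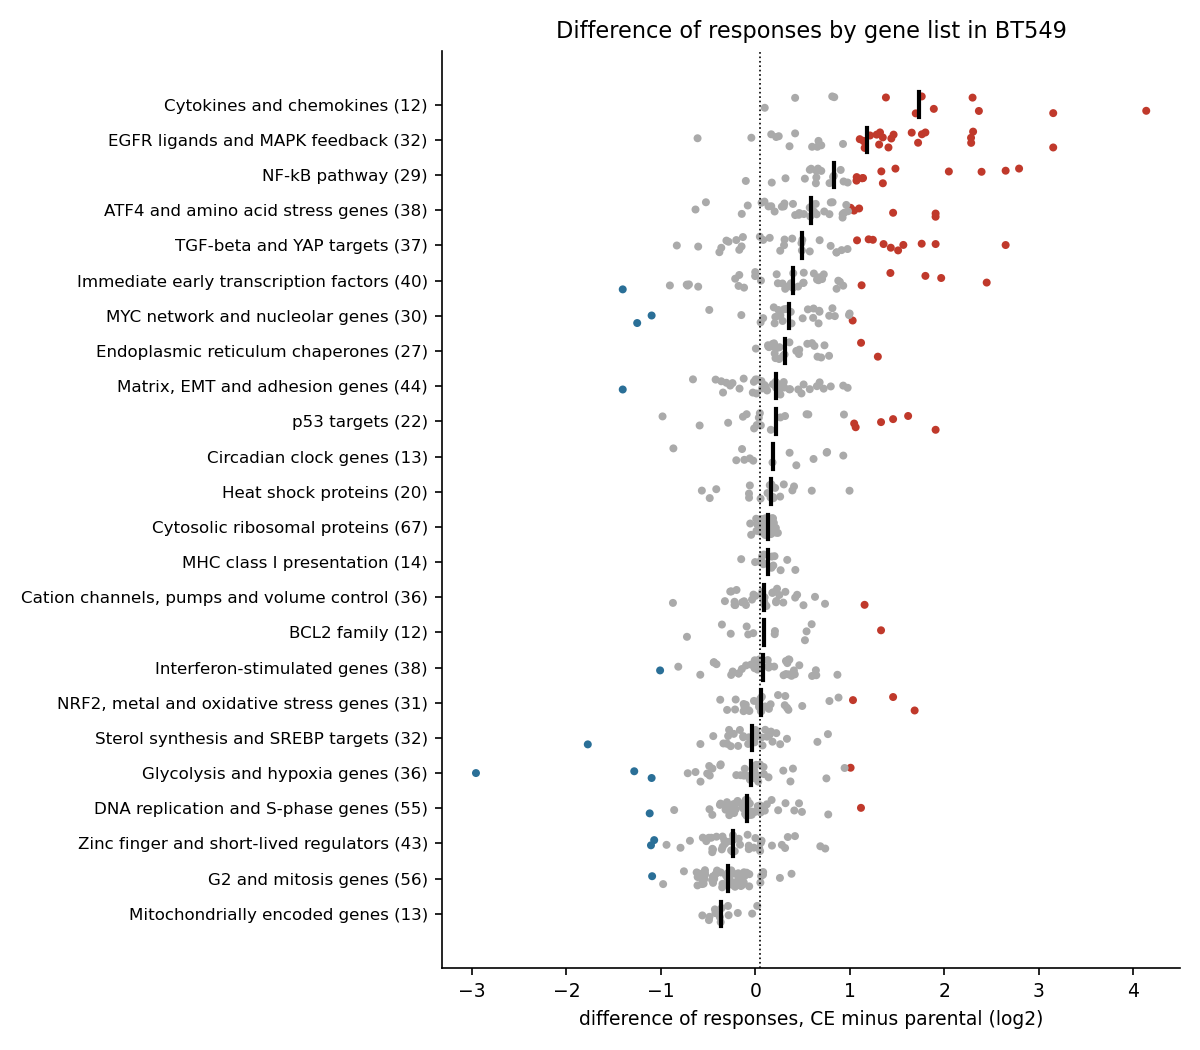
Difference of responses (log2, horizontal) for the measured members of 24 gene lists, with the number of members in brackets. Points at or above 1 are red and at or below -1 blue, black bars are list medians, and the dotted line is the median of all genes (0.047). Cytokines (median 1.73), MAPK feedback (1.19) and NF-κB genes (0.83) lie on the right and mitochondrially encoded genes (-0.37) on the left.

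Other genes among the 12 largest positive differences stand outside these lists. HAS3, a hyaluronan synthase (chromosome 16), had 196 CPM in parental control cells, 179 after Acetalax, 48.9 in CE control cells and 405 in CE cells after Acetalax, a difference of 3.19 (3.11 to 3.26). The parental response was -0.14, so the response was seen in CE cells only. CD274, which encodes the immune checkpoint ligand PD-L1, had 30.6, 51.9, 3.56 and 31.0 CPM and a difference of 2.35 (2.11 to 2.58). It did not exceed the parental level after Acetalax (-0.74), and the control level carried the difference. CLDN1, a tight junction protein, had 102, 134, 26.1 and 171 CPM and NAV3, a microtubule-associated neuron navigator, 37.2, 37.6, 15.2 and 83.5 CPM. Their differences were 2.31 and 2.44.

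Genes of the integrated stress response and the endoplasmic reticulum had smaller differences. In the ATF4 list, 6 of 38 measured genes were at least 1 (15.8%, against 2.19% of all genes). The median was 0.59, and ATF4 itself was at 0.46. TRIB3, a feedback inhibitor of ATF4, had 55.1 CPM in parental control cells, 36.2 after Acetalax, 45.4 in CE control cells and 112 in CE cells after Acetalax. Its responses were thus of opposite sign, -0.60 and 1.30. CHAC1 (1.10), a glutathione-degrading enzyme, ASNS (1.01), asparagine synthetase, and PPP1R15A (1.04), a phosphatase subunit that reverses the translation block, were just over 1. SESN2, a sestrin that restrains mTORC1, was at 1.46.

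All 27 measured endoplasmic reticulum genes had a difference above 0, with a median of 0.31 against 0.047 over all genes. Of them, 2 were at least 1 (7.41%, against 2.19% of all genes), both carried by the treated level. Positive differences close to 0, such as the lowest of these 27 (0.01), change sign with total-count scaling. HSPA5, the chaperone BiP, had 917 CPM in parental control cells, 1313 after Acetalax, 1437 in CE control cells and 4466 in CE cells after Acetalax, a difference of 1.12 (1.10 to 1.14). With total-count scaling it was 0.997, under the size limit, and HERPUD1 was then the remaining gene of the pair. HERPUD1, a factor of protein degradation at this membrane, had 57.97, 194, 69.5 and 573 CPM and a difference of 1.30. CALR and HSP90B1, other lumenal chaperones, were at 0.13 and 0.36 although both levels were over 1 higher in CE cells. The heat shock list had none of its 20 measured genes at 1 or more in size, with a median of 0.17. HSPA2, an HSP70 family member that the list lacks, was at -1.56 and was chosen after its value was seen. On the list, HSPA8, the constitutive HSP70, was at -0.57. DNAJB4 was just under 1.

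Of the p53 targets, 6 of 22 were at least 1 (27.3%, against 2.19% of all genes), with a median of 0.21 over the list. They were GADD45A (1.62), a growth arrest factor, PMAIP1 (1.33), the BH3-only protein NOXA, TNFRSF10B (1.05), a death receptor, AEN (1.06), an exonuclease, and GDF15 and SESN2, which other lists also hold. The direct feedback gene MDM2 was at 0.05 and the cell cycle inhibitor CDKN1A at 0.27. The BCL2 family held PMAIP1 as its single gene of 1 or more in size, with MCL1, a survival factor, at 0.60 and BCL2L11, the BH3-only protein BIM, at -0.72. In the NRF2, metal and oxidative stress list, 3 of 31 were at least 1 (9.68%, against 2.19% of all genes), with a median of 0.06. These were SESN2, OSGIN1 (1.69, from 5.75, 13.98, 2.21 and 17.5 CPM in the usual order) and TXNIP.

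Of the 12 largest negative differences, only PFKFB4 and MYLIP belong to genes on a list. RASL11A, a small GTPase of the RAS superfamily (chromosome 13), had 2.71 CPM in parental control cells, 2.40 after Acetalax, 36.4 in CE control cells and 3.86 in CE cells after Acetalax. Its level was thus high in the CE control library alone, the difference was -3.05 (-3.48 to -2.62), and the control level carried it. PFKFB4, which makes the glycolytic activator fructose 2,6-bisphosphate, had the same shape with 2.38, 1.16, 32.0 and 2.02 CPM and a difference of -2.96 (-3.52 to -2.40). LRRC32, a receptor that holds latent TGF-β, had 2.09, 1.12, 18.5 and 2.28 CPM and a difference of -2.12. In these 3 genes CE cells after Acetalax were still above treated parental cells, by 0.68, 0.77 and 1.00, but far less than without drug. Each was under 5 CPM in the other libraries and so passed the level filter through the CE control library only. For such genes the filter itself favors a high control level.

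SOWAHD had 9.40 CPM in parental control cells, 5.38 after Acetalax, 19.1 in CE control cells and 1.37 in CE cells after Acetalax, and both levels shared its difference of -2.96. HOXB8, a homeobox factor of body patterning, had 8.79, 5.58, 24.8 and 2.57 CPM and -2.60. C5orf54 was carried by the treated level, with 6.59, 4.84, 8.33 and 1.09 CPM and -2.45. MYLIP, a ubiquitin ligase that degrades the LDL receptor, had 14.3, 10.4, 13.2 and 2.79 CPM, a difference of -1.77 carried by the treated level. HRCT1 behaved likewise, with 36.7, 24.4, 36.6 and 6.56 CPM and -1.88. The lower expressed of these genes have wide counting intervals, and C21orf58 (-1.81) completes the protein-coding genes of the 12 lowest, with VAV3 and TRIM22 given below.

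HOTAIR, a noncoding RNA antisense to the HOXC genes (chromosome 12, hg19 54356092 to 54368740), had 10.4 CPM in parental control cells, 7.66 after Acetalax, 27.1 in CE control cells and 5.81 in CE cells after Acetalax. Its difference was -1.77, and because the strand column of the counts is not stated, reads of HOTAIR and of overlapping genes on the other strand cannot be told apart. VAV3, an exchange factor for small GTPases, had 0.79, 1.25, 28.5 and 8.80 CPM and opposite responses of 0.63 and -1.69. TRIM22, an interferon-induced ubiquitin ligase, had 1 and 4 counts in parental cells against 1517 and 686 in CE cells, so its difference of -1.89 had an interval from -3.90 to 0.11.

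In the glycolysis and hypoxia list, 3 of 36 measured genes were -1 or less (8.33%, against 1.25% of all genes). A further gene was at least 1 (2.78%, against 2.19%), and the list's median was -0.05. The 3 were PFKFB4, NDRG1 and MXI1, each carried by the control level. NDRG1, induced by hypoxia, had 0.79 CPM in parental control cells, 1.05 after Acetalax, 135 in CE control cells and 72.6 in CE cells after Acetalax, a difference of -1.28 (-1.90 to -0.67). CA9, a hypoxia-induced carbonic anhydrase, was the gene above 1, but it had 15 and 5 counts in parental cells and an interval from -0.27 to 2.29. LDHA, lactate dehydrogenase A, was at 0.02 and the glucose transporter SLC2A1 at -0.37.

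Genes of cell division had small negative differences. Of 56 measured G2 and mitosis genes, 50 were below 0, with a median of -0.29 against 0.047 over all genes. CDC25C (a phosphatase that activates CDK1) was the 1 gene at -1 or less (1.79%, against 1.25% of all genes), with -1.09. PSRC1, a spindle protein, was at -0.98 and the kinesin KIF20A at -0.76, with 267 CPM in parental control cells, 218 after Acetalax, 292 in CE control cells and 141 in CE cells after Acetalax. Of 55 DNA replication genes, PRIM1 (primase, -1.12) was -1 or less and CCND1 (cyclin D1, 1.12, but 0.996 and so under the limit with total-count scaling) at least 1. Each is 1.82% of that list, near the shares over all genes. All 13 mitochondrially encoded genes lay between -0.56 and 0.02, with a median of -0.37, while the 67 ribosomal protein genes lay between -0.05 and 0.24, with a median of 0.13. Among KRAB zinc fingers, a family of repressors, ZNF253 (-1.11) and ZNF248 (-1.07) were the 2 of 36 listed genes at -1 or less (5.56%). The list holds part of the family: of all 358 measured genes whose symbol starts with ZNF or ZFP, 13 were -1 or less and 1 at least 1. Over all 10270 genes, 128 (1.25%) were -1 or less and 225 (2.19%) at least 1. The lowest off the list, looked up afterwards, were ZNF737 (-1.60) and ZNF287 (-1.50). In the MYC network, MXD3 (-1.25) and MXI1 (-1.10), which compete with MYC for MAX, were -1 or less, and RRP12, a ribosome assembly factor, was at 1.03. These made up 6.67% and 3.33% of the 30 measured genes of the MYC network and nucleolus.

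Interferon-stimulated genes were far higher in CE cells at both levels, and the median of their differences of responses was close to 0. Over the 38 measured genes the median CE-minus-parental difference was 3.98 without drug and 3.93 after Acetalax, and the median difference of responses 0.09. List medians within 0.12 of 0, like this one, can change sign with the scaling. Some of the 38 genes, such as OAS1, had few counts in parental cells and passed the level filter through the CE libraries. Their parental responses, and so their differences of responses, are uncertain. MX1, an antiviral GTPase, had 3.61 CPM in parental control cells, 1.75 after Acetalax, 811 in CE control cells and 497 in CE cells after Acetalax, and a difference of 0.32 (-0.06 to 0.71). OAS1, a sensor of double-stranded RNA, was the single listed gene past 1 in size at -1.01, with 5 and 7 counts in parental cells and an interval from -2.43 to 0.42. Off the list, TRIM22 is given above, and GBP1, an interferon-induced GTPase looked up afterwards, was at 1.41 (1.33 to 1.48). The 14 genes of MHC class I presentation were 1.93 higher without drug and 2.21 higher after Acetalax by their medians, with none past 1 in size. HLA genes share near-identical stretches, so their counts are uncertain.

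TRPM4 had 18.7 CPM in parental control cells, 14.02 after Acetalax, 31.1 in CE control cells and 23.0 in CE cells after Acetalax. Its response was -0.42 in parental and -0.44 in CE cells, a difference of -0.02 (-0.21 to 0.17). CE cells were higher by 0.73 without drug and by 0.71 after Acetalax. These values are RNA only. By Western blot the paper found hardly any TRPM4 protein in the CE cells of either line, and it describes the transcript there as unchanged. Among the 36 measured channels, pumps and volume control genes, ATP2B1, a plasma membrane calcium pump, was the single listed gene past 1 in size. This is 2.78% of the list, where 2.19% of all genes were at least 1. ATP2B1 had 186, 211, 192 and 484 CPM in the usual order and a difference of 1.16 (1.10 to 1.21) carried by the treated level. Channels off the list and looked up afterwards were TRPC4, a cation channel, at 1.09 and KCNS1, a potassium channel subunit, at -1.72. LRRC8A, the obligatory subunit of the volume-regulated anion channel, was at 0.74 and its partner LRRC8D at -0.87.

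The remaining lists held few genes of 1 or more in size, while 2.19% of all genes were at least 1 and 1.25% were -1 or less. Sterol synthesis and SREBP targets had MYLIP alone (of 32, 3.125%, median -0.04), with NPC1, a lysosomal cholesterol exporter, at 0.77 and STARD4, a sterol carrier, at 0.66. Matrix, EMT and adhesion genes had SNAI1 alone on the list (of 44, 2.27%, median 0.22), with the protease PLAU at 0.98 and the factor SNAI2 at 0.93. Genes of matrix and adhesion off the list include HAS3 and CLDN1, given above, and, looked up afterwards, the protease ADAM19 at 1.08 and the integrin ITGB8 at 1.01. The 13 circadian clock genes had none, with PER2, a repressor of the clock, at 0.93, its activator ARNTL at 0.76 and BHLHE41, another repressor, at -0.87. Together the lists held 79 of the 353 genes, 68 of the 225 positive and 11 of the 128 negative.

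The same difference was computed in MDA-MB468 cells, a triple-negative line with epithelial features, whose libraries are separate from those of BT549. Of 9373 genes that passed the filter in both lines, 7 (0.0747%) were at least 1 and 96 (1.02%) -1 or less in MDA-MB468. The differences of the lines had a Pearson correlation of -0.37 and a Spearman correlation of -0.32 across these genes, given as a description. Of the 173 genes with a positive difference in BT549 that were measured in MDA-MB468, 147 (85.0%, against 45.7% of all genes) were below 0 there, with a median of -0.50. Their median response in MDA-MB468 was 1.00 in parental and 0.64 in CE cells. Of the 173, 86 reached 1 in parental cells (49.7%, against 4.24% of all genes). In CE cells 53 did (30.6%, against 1.60%). Of 102 genes with a negative difference in BT549, 75 (73.5%, against 54.3%) were above 0 in MDA-MB468, with a median of 0.30.

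In total 22 genes were 1 or more in size in both lines, and each had opposite signs. Of the 173 positive genes, 21 (12.1%) were -1 or less in MDA-MB468, against 1.02% of all genes. Only 7 of 9373 genes were at least 1 in MDA-MB468, which left little room for a shared positive sign. Of the 102 negative genes, 1 was at least 1 there and 0 were -1 or less. FOSL1 was at 2.45 in BT549 and -2.63 in MDA-MB468, where it had 323 counts in parental control cells, 17492 after Acetalax, 853 in CE control cells and 8133 in CE cells after Acetalax. IL8 was at 4.14 and -1.81, MAFF at 1.97 and -1.54, HBEGF at 2.28 and -1.45, LIF at 3.15 and -1.11, and INHBA at 1.76 and -1.07. HRCT1 was the single gene of the 22 with the reverse signs, -1.88 and 1.03. The lists of cytokines (-1.27 over 4 genes), MAPK feedback (-0.63 over 29) and ATF4 genes (-0.28 over 36) had medians below 0 in MDA-MB468, and G2 and mitosis genes a median of 0.37 over 56. Each line has 1 library per condition, so the difference between lines was not tested.

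**Figure D5:**
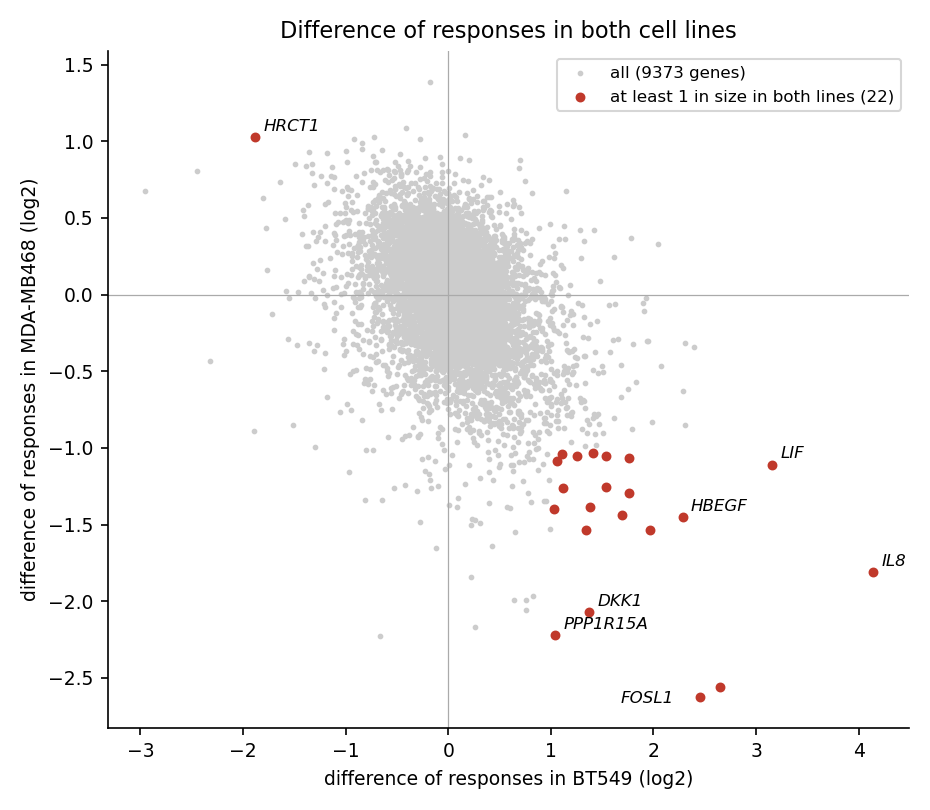
Difference of responses in MDA-MB468 (vertical, log2) against that in BT549 (horizontal) for the 9373 genes that reached a mean of 5 CPM in each line. The 22 red genes are 1 or more in size in both, with 21 at lower right and HRCT1 at upper left.

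Gene structure was described from the annotation. The median span on the genome was 27.2 kb for the 225 genes with a positive difference, 17.8 kb for the 128 with a negative one and 33.6 kb for all. The median number of exons was 6, 5 and 8, and the GC content of the transcript 47.9%, 51.4% and 47.2%, in the same order. Genes without introns made up 5.33%, 7.03% and 4.15%. Annotation was found for all 353 genes, and the transcripts came from a GENCODE annotation on GRCh37, which need not be that of the counts.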

How the data were processed

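Polyadenylated RNA was sequenced as pairs of 101 bases. Reads were mapped by the authors on hg19, using STAR (2.7.11b in the submitters' processing notes, while the methods name another release) and whole-number raw counts per gene were deposited. Which annotation and which strand column gave them is not given in the sources used here. The table has 58154 rows for 55679 identifiers, of which 1392 were repeated and kept 1 time each, and 28 symbols turned into dates were restored. No column was left out (0).

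CPM with a prior count of 2 were computed as in edgeR 4.0.16 (R 4.3.3), with TMM factors over the 4 BT549 libraries, in Python 3.11.15. With 4 libraries for 4 conditions no degree of freedom is left, so no test was run and 1 on the log2 scale was used as the size limit. Counting intervals used the sum of reciprocal counts, each with the prior added. The calculation was checked on simulated data. MDA-MB468 libraries were treated the same way. A gene was assigned by the share of its difference found among the Acetalax libraries (0.75 and 0.25), and its responses by a size of 0.5.

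Members and gene lists were chosen with earlier results of these data known. Genes named are the 12 highest and 12 lowest, the 6 largest carried by the control level, the 4 largest of each response class, the 3 largest of each list, list members whose role is described, TRPM4 and cell type markers. Names that stand for clones only were left out, and some genes that the rule takes are not reported here. ITM2A and KATNAL2 mark the filter's limit. Alternatives were total counts, DESeq2 1.42.0 size factors, TMM over all 8 libraries, prior counts of 0.25 and 10, means of at least 1 and 10 CPM, no filter beyond 1 count, and other limits for shares (0.67 and 0.33) and response size (0.3).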

Additional observations from a re-analysis of the deposited data

Results flagged for a closer look

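In 11 genes of 1 or more in size, parental and CE cells of BT549 responded to Acetalax in opposite directions, each by at least 0.5. The difference of responses was 1.91 for TRIB3, 1.78 for POU2F2, 1.58 for PTX3, 1.54 for PDCD1LG2 and 1.33 for RGS4. It was -2.32 for VAV3, -1.89 for TRIM22, -1.72 for KCNS1, -1.40 for SNAI1, -1.21 for ZNF703 and -1.18 for PARD6G. With 1 library per condition these differences were not tested. PTX3 had 7 and 4 counts in parental cells, TRIM22 had 1 and 4 and VAV3 36 and 56, so their parental responses rest on few reads. Other responses barely passed the limit of 0.5. These were 0.51 for SNAI1, -0.50 for PDCD1LG2 and 0.52 for ZNF703 in parental cells, and -0.51 for PARD6G in CE cells. PDCD1LG2 encodes PD-L2, the other ligand of the receptor bound by PD-L1, and had 10.7 CPM in parental control cells, 7.53 after Acetalax, 2.87 in CE control cells and 5.94 in CE cells after Acetalax. POU2F2, a lymphoid transcription factor, had 38.0, 19.1, 2.29 and 3.99 CPM in the same order.

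Among the 22 genes of 1 or more in size in both lines, all with opposite signs, the difference in MDA-MB468 was -2.63 for FOSL1, -1.81 for IL8, -1.54 for MAFF, -1.45 for HBEGF, -1.11 for LIF, -1.07 for INHBA and 1.03 for HRCT1. Few genes were at least 1 in MDA-MB468, as given above, and no test between the lines could be made.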

How the results depend on the processing

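Scaling by total counts moved the median difference from 0.047 to -0.074, a shift of -0.12, after which 291 of the 353 genes were still 1 or more in size. DESeq2 factors (261 positive, 113 negative) and TMM over all 8 libraries (276 and 106) shifted it by 0.04 and 0.06. With total counts or a prior count of 10, 0 genes had a smaller response of the same direction, and with a prior count of 0.25, 3. A prior count of 10 left 6 genes with opposite responses.

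The filter moved counts most. With a mean CPM limit of 1, 387 genes were -1 or less, 239 were carried by the treated and 236 by the control level, and the response classes held 266 (larger in CE cells), 333 (CE only), 45 (opposite), 46 (parental only) and 7 (smaller). With at least 10 CPM, 65 genes were -1 or less and 5 were opposite. With 1 count or more, 2601 genes were at least 1 and 4185 -1 or less, 2143 and 1923 were carried by the treated and control level, the classes held 511, 2110, 2162, 1796 and 207, and the median was -0.069. Less the median of genes over 5 CPM, the clock list's median was -0.070 with 1 CPM and -0.088 with 1 count, that of the BCL2 family -0.070, -0.096 and (10 CPM) 0.16, and that of cytokines 0.75 with 1 count. With a response size of 0.3, 116 genes responded in CE cells only and 24 in opposite directions.

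Of the 54 genes of 1 or more in size among the 85 that the naming rule takes by rank, class or list, none changed sign under another scaling, prior count or filter (43 of them passed at 10 CPM). For scaling and filters this outcome was fixed beforehand and is no check. Another scaling moves all differences by nearly the same amount, about 0.12 in size at most, and a filter leaves values as they are. Other list members named in the text were not followed this way. Of the 85, 35 left their counting interval with total counts, 9 with DESeq2 factors and 15 with TMM over 8 libraries. Differences within about 0.12 of 0 depend on the scaling, and genes of few counts are limited by depth. No paired analysis was possible because each condition has 1 library. No replicate could be left out for the same reason.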

Other observations

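The 9 genes of 1 or more in size that responded in parental BT549 cells only were not described above as a group. GAS1, a growth arrest protein of the cell surface, had 60.3 CPM in parental control cells, 136 after Acetalax, 236 in CE control cells and 245 in CE cells after Acetalax. Its difference was -1.12 (interval -1.20 to -1.05), and CE cells without drug already lay above treated parental cells. CYBA, a subunit of NADPH oxidase, had 18 and 63 counts in parental cells against 1737 and 1577 in CE cells, with a difference of -1.58, and TLE3, a corepressor, had -1.03. On the other side, ENC1, an actin-binding protein, had 128, 55.2, 69.2 and 72.7 CPM in the same order and a difference of 1.28. MAP3K5, the stress kinase ASK1, had 27.3, 14.6, 12.8 and 15.4 CPM and 1.17, and ARHGAP31 and ROR1 had 1.15 and 1.04. BMP7 (10 and 2 counts in parental cells) and CA9 had intervals that include 0.

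TXNIP, which binds thioredoxin and restrains glucose uptake, had 19.6 CPM in parental control cells, 4.23 after Acetalax, 106 in CE control cells and 47.1 in CE cells after Acetalax. Its responses were -2.20 and -1.17, and it was the single gene of 1 or more in size whose response was smaller in CE cells with the same sign. The table places this identifier on a patch sequence of the assembly.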
